A study of Mus musculus with 2 samples.

Results

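Read ends of DNA breaks were examined at 5 small genes transcribed by RNA polymerase III: Rn7sk (7SK RNA), Rpph1 (the RNA of RNase P), Rmrp (the RNA of RNase MRP), and Rny1 and Rny3 (the Y RNAs Y1 and Y3). They are 5 of 48860 RefSeq genes with at least 20 reads in a library, and all 5 passed that minimum. The genes were chosen by name as single-copy genes, with Rn7sk already known to be higher in S phase and Rpph1 lower, so these ratios are given as descriptions. Each was counted with 2 kb of flank at either end. The assay, END-seq, ligates an adapter to DNA ends in agarose-embedded cells, so that a read starts at a break end. Reads of the plus strand run rightward from the end, and those of the minus strand leftward. Where both ends of a break are captured, minus-strand reads stand on its left and plus-strand reads on its right.

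The series compares CD43-negative B cells from spleens of mice aged 4 to 8 weeks in S phase and in G1 phase. The S-phase library came from cells that had been activated with IL-4 at 25 ng/mL together with anti-CD40 at 1 µg/mL over 24 to 28 h, and the G1-phase library from quiescent cells without them. Both titles carry the prefix ATR+c, which the labels do not explain. Neither the strain nor the number of mice is stated in the labels. There was 1 library per group, so no test was possible, and the values describe these libraries, not the conditions. Read ends on DNA give no expression, so the labelled cell type was not checked by markers. The S-phase library held 20543572 reads on chromosomes 1 to 19 and the G1-phase library 26889564, and RPM below means reads per 1000000 of these. A single read was worth 0.0487 RPM in S phase and 0.0372 RPM in G1 phase. Ratios are S phase over G1 phase, with exact 95% intervals for a pair of Poisson counts. These cover counting error only and are too narrow where reads pile up on a position, because the sources describe no molecular identifiers and repeated reads can be copies of 1 molecule.

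RNA polymerase III makes short RNAs that are not translated. 7SK RNA holds the elongation kinase CDK9 with its cyclin T partner in an inactive particle, RNase P trims the leaders of tRNA precursors, RNase MRP cuts ribosomal RNA precursors, and the Y RNAs bind the proteins Ro60 and La. Unlike tRNA genes, these genes have promoters outside the transcribed part, with a TATA box and a proximal sequence element close to the start and a distal element farther upstream that often holds an octamer. Rpph1 is known for sharing its promoter region with Parp2, the gene of a DNA damage-sensing polymerase that runs the other way. The RefSeq table used here gives no strand for the 5 genes, so left and right refer to the plus strand of mm10.

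The promoter table held none of the 5 genes, but it held the right-hand neighbours of 3 of them, all on the plus strand. The 250 bases before each neighbour's start site are shown because they lie beside or across the edge of the small RNA gene and hold the highest stacks of ends at Rn7sk and Rmrp. They are RefSeq sequences of the build GRCm38.p6 (the coordinates of mm10), read on the plus strand. Capitals mark matches, on either strand, to ATGCAAA (7 bases of the octamer), TCACCNTNA (part of the proximal sequence element), TATAA (part of a TATA box) and CCGCCC (part of a GC box). These letters were chosen after the sequences were seen.
Rn7sk to C920006O11Rik, chr9:78175664-78175913: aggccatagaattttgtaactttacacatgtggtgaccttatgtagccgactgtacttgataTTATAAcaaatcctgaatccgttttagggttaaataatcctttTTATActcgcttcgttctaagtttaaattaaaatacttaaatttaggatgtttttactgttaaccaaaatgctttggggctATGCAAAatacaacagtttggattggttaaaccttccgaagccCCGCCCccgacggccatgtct
Rmrp to Ccdc107, chr4:43493115-43493364: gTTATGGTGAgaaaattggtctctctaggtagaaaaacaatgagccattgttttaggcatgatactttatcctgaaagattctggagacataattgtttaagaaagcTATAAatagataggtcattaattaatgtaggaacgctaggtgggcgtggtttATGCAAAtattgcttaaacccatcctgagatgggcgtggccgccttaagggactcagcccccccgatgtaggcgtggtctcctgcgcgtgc
Rpph1 to Parp2, chr14:50807666-50807915: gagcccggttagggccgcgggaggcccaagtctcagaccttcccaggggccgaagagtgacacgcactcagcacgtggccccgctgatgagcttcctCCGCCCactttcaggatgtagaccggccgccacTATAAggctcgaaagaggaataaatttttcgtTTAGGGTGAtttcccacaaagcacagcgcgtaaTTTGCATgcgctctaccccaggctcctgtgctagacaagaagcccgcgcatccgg

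The octamer part was found in all 3 windows, and in 4.13% of 32817 promoter windows of this length. It began 217 bp from the edge of Rn7sk, 215 bp from the edge of Rmrp and 90 bp from the edge of Rpph1. The proximal sequence element part began 57 bp from the edge of both Rmrp and Rpph1, on the minus strand in both, and was found in 2.45% of all windows. TATAA was found in 22.8% of all windows. At Rpph1 it lay 25 bp from the gene. At Rmrp it lay 163 bp away, and at Rn7sk the nearest of its overlapping matches, on the minus strand, began 93 bp away. The windows began at 43493115 beside Rmrp and at 78175664 beside Rn7sk, past the gene ends at 43493059 and 78175633. The bases between were not searched, so a match nearer to Rmrp or Rn7sk could not be seen. These distances are therefore not comparable with that at Rpph1. The GC box part, present in 32.7% of all windows, lay 260 to 265 bp from the edge of Rn7sk and within the last bases of Rpph1. A match describes these letters and does not show that a factor was bound.

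At Rn7sk, Rmrp and Rny3 the ends were concentrated in a narrow cluster outside the gene, at nearly the same distance from the gene's edge. The cluster was taken as the 50 bp window with the highest sum of both libraries' RPM, a rule made after the values were seen. The rule does not use the difference between libraries, but the sum is drawn to high stacks of either one. The share of reads in a window and its ratio are thus partly set by the choice and are descriptions only. The cluster lay 248 to 297 bp to the right of Rn7sk, 264 to 313 bp to the right of Rmrp and 229 to 278 bp to the left of Rny3. At Rn7sk there were 79 S-phase and 36 G1-phase reads in it, or 39.7% and 28.3% of the region's reads on 1.15% of its length. At Rmrp it held 94 and 98 reads, or 58.0% and 59.0%. At Rny3 it held 62 and 31 reads, or 53.4% and 38.3%. At Rpph1 and Rny1 the fullest window lay across the edge of the gene, and the libraries shared no strand-specific position in it. At Rpph1 it held 0 and 17 reads, or 0% and 29.8% of the region's reads, the 17 at 3 positions 12 to 18 bp to the right of the gene. At Rny1 it held 8 and 5 reads, or 14.5% and 8.06%.

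**Figure D1:**
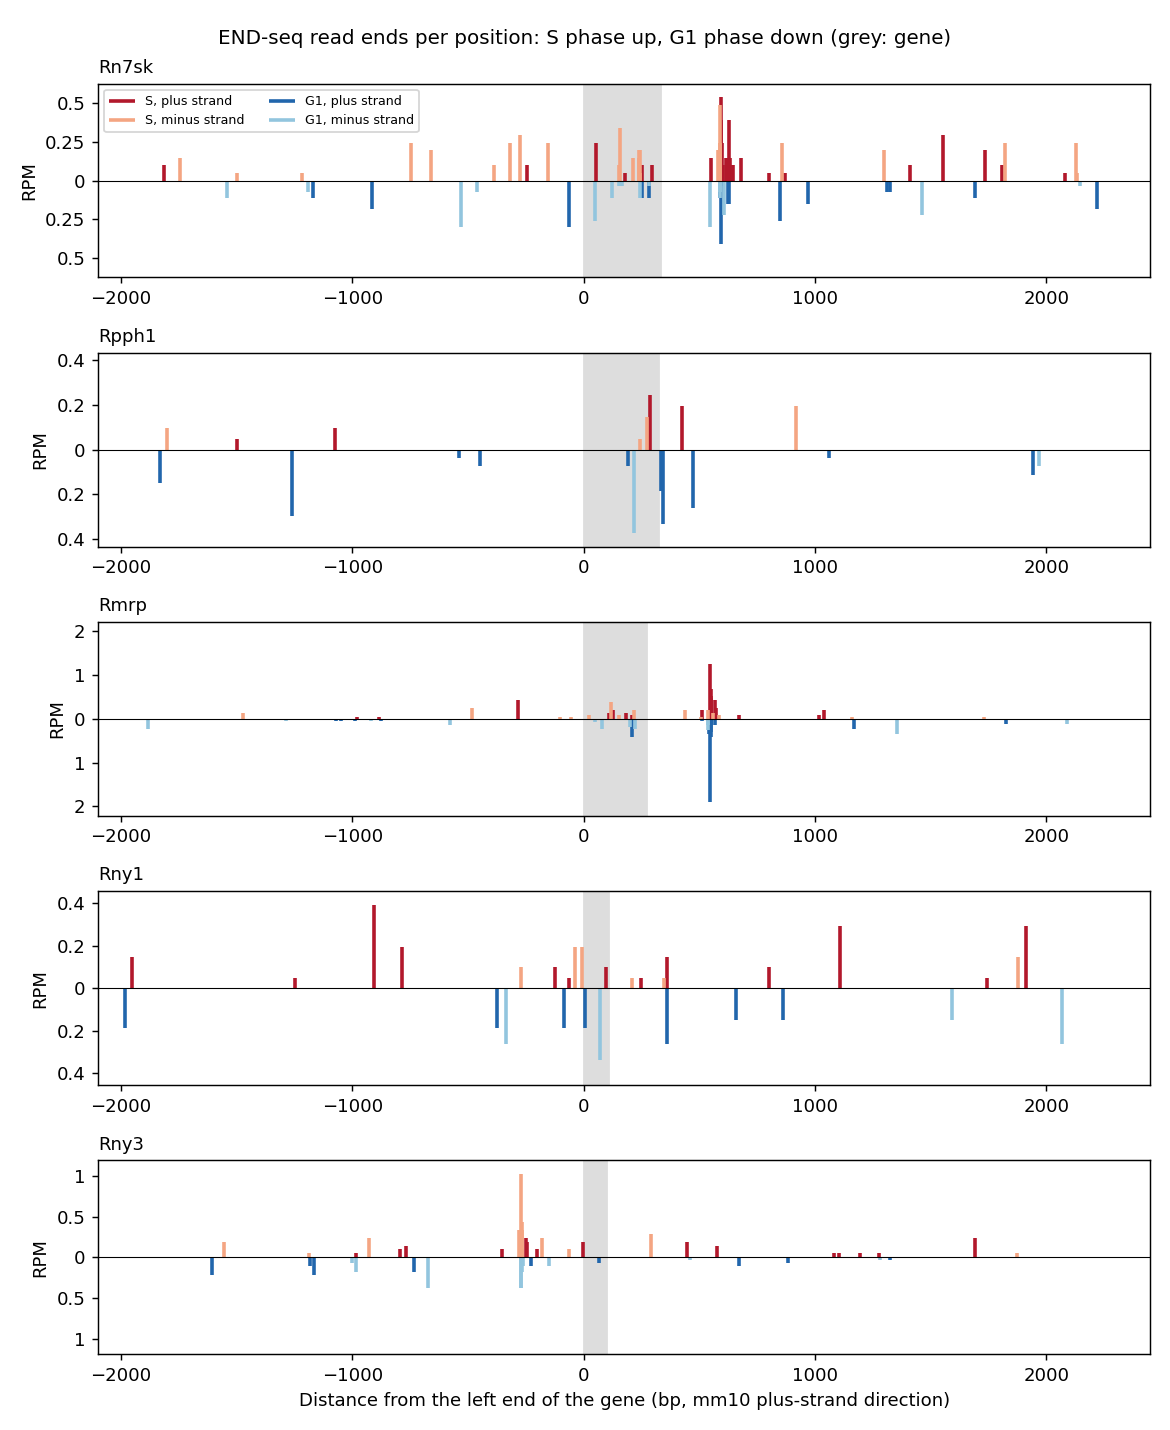
Read ends at each position of the 5 genes and their 2 kb flanks, in RPM, with S phase drawn upward and G1 phase downward, darker lines for the plus strand and lighter lines for the minus strand. The x axis is the distance in bp from the left end of the gene, which is shaded grey. Clusters stand to the right of Rn7sk and Rmrp and to the left of Rny3 in both libraries, and Rpph1 and Rny1 show scattered stacks.

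The bases of the clusters at Rn7sk and Rmrp are shown because their highest stacks fell in runs of C. Capitals mark each base at which a read of either strand and either library began.
Rn7sk cluster, chr9:78175881-78175930: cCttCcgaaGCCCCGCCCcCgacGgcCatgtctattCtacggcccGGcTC
Rmrp cluster, chr4:43493323-43493372: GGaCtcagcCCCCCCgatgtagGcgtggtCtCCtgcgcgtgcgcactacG
Both windows are 70% G and C. At Rn7sk 18 of 19 bases with ends were G or C and 13 were C. At Rmrp all 14 were G or C and 10 were C. Bases were read on the plus strand for ends of both strands. The share of C alone in the windows was not computed, so the counts of C are descriptions only. The highest position of each cluster was a C in both libraries.

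The Rn7sk cluster had ends of both strands side by side. In the S-phase library its minus-strand reads lay at 4 positions up to 78175892, which held 10 reads, and its plus-strand reads at 12 positions, the highest of them 78175897 with 11 reads. In G1 phase the highest position was 78175896, also with 11 plus-strand reads. In S phase the highest minus-strand stack thus stood 5 bp to the left of the highest plus-strand stack. In G1 phase the highest minus-strand stack of the cluster lay to the right, at 78175907 with 6 reads. Minus-strand reads of G1 phase also lay to the left, at 78175890, 78175891 and 78175892, with 3, 2 and 2 reads. These positions were covered in S phase too. A G1-phase minus-strand stack of 8 reads at 78175848 lay farther left, outside the cluster. The cluster lay 17 bp before the start site of C920006O11Rik, a long noncoding RNA gene, when measured from the S-phase peak, and 47 bp after the first base of the octamer part. By strand it held 55 plus-strand and 24 minus-strand reads in S phase, and 23 and 13 in G1 phase. The ratio of the cluster was 2.87 (1.91 to 4.39). The libraries shared 5 of the cluster's strand-specific positions, out of 16 in S phase and 9 in G1 phase.

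The Rmrp cluster was nearly all on the plus strand and peaked at the same base in both libraries. Position 43493333 held 26 S-phase and 51 G1-phase reads of the plus strand, 32 bp before the start site of Ccdc107 and 59 bp after the first base of the octamer part. That start site is at 43493365, whereas the gene coordinates used for counts begin at 43493340, within the cluster. The cluster held 85 plus-strand and 9 minus-strand reads in S phase, and 87 and 11 in G1 phase. Its ratio was 1.26 (0.936 to 1.68), an interval that holds 1. All but 2 of the 8 positions covered in G1 phase were also covered in S phase. The cluster at Rny3 lay on the other strand, with 53 minus-strand and 9 plus-strand reads in S phase and 28 and 3 in G1 phase. Its highest position in S phase was 47781352, with 21 reads, where G1 phase had 10. The ratio of that cluster was 2.62 (1.67 to 4.17).

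At Rn7sk and Rmrp a stretch without any end lay between the cluster and the gene. No end of either library fell within the 214 bp to the right of Rn7sk or the 162 bp to the right of Rmrp, which include the matches to TATAA near Rn7sk and to the proximal sequence element part near Rmrp. To the left of Rn7sk the nearest end lay 155 bp away in S phase and 62 bp in G1 phase, against 219 and 215 bp on the right. To the left of Rmrp it lay 56 bp away in S phase, from 1 read, but 578 bp away in G1 phase. On the right of Rmrp these distances were 163 and 236 bp, so in G1 phase the left side was the farther one. Empty stretches were common in these regions. Of the 100 bp bins, 13 of 44 at Rn7sk and 20 of 43 at Rmrp had no end in either library. The gap beside each gene is therefore given as a description only. Whether reads can be placed uniquely in the empty stretches was not tested.

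On average over the genome, read ends were denser before start sites, and their mean density there was higher in S phase too. The median promoter window of 300 bases held only 3 reads in each library, so the means need not describe a typical start site. Averaged over all 32817 promoter windows, the density in both libraries peaked 100 to 51 bp before the start site, at 3.56 RPM per kb in S phase and 2.30 in G1 phase, against 0.473 and 0.398 at 1000 bp before it. The window of C920006O11Rik beside Rn7sk held 89 and 44 reads, a ratio of 2.65 (1.82 to 3.89), with more reads than 95.8% of all windows in S phase and 93.4% in G1 phase. The window of Ccdc107 beside Rmrp held 103 and 99 reads, a ratio of 1.36 (1.02 to 1.81), above 96.4% and 97.0% of all windows. The window of Parp2 beside Rpph1 held 13 and 24 reads, a ratio of 0.709 (0.331 to 1.45). Of its 24 G1-phase reads, 7 lay at 50807921, after the start site at 50807916 and outside the bases printed above. In the gene coordinates used for counts, Parp2 begins at 50807897. Of 5768 promoter windows with at least 20 reads in a library, 38.1% had a ratio of at least 2 and 4.4% of at most 0.5, and their median ratio was 1.69. Of the 3 windows, that beside Rn7sk was thus above this median, and those beside Rmrp and Rpph1 were below it.

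**Figure D2:**
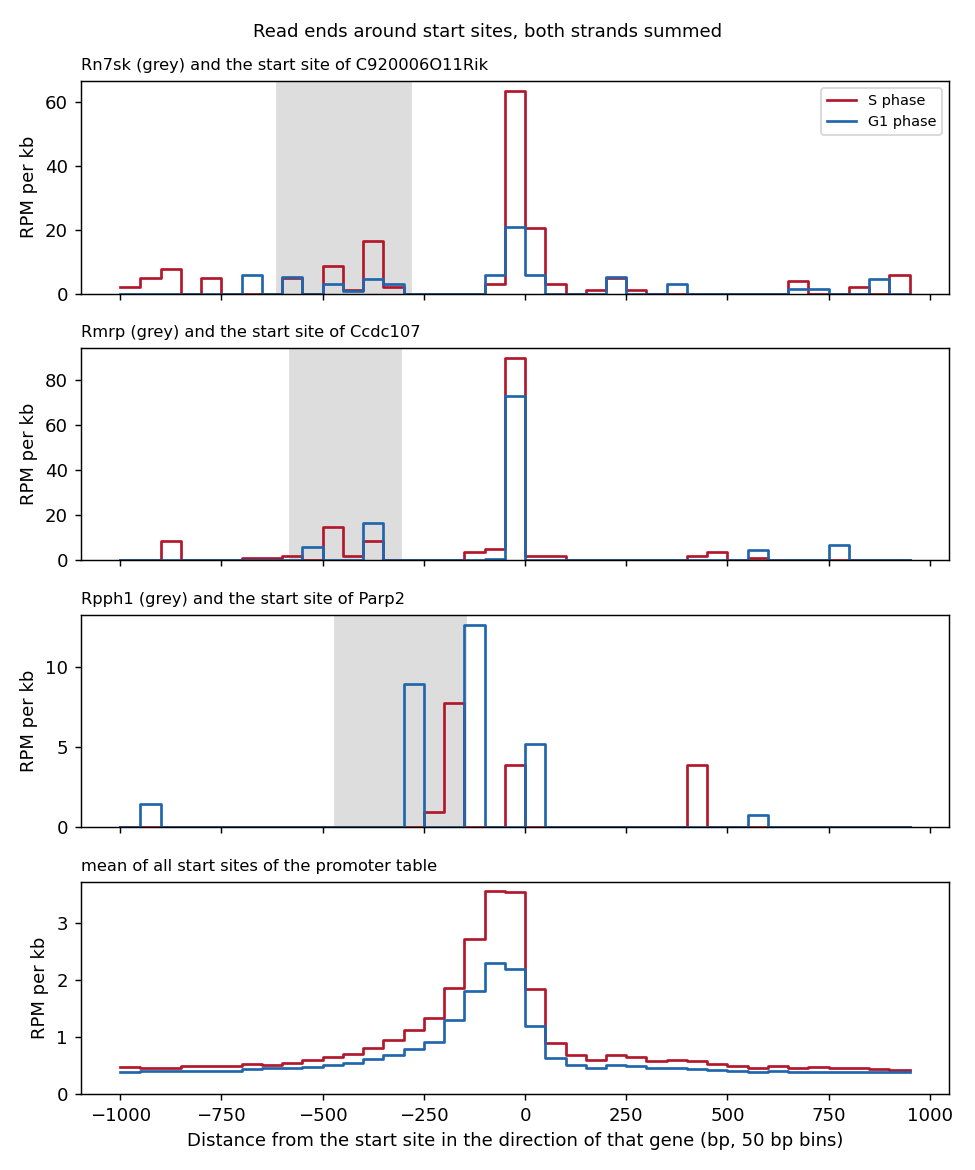
Density of read ends in RPM per kb, both strands summed, in 50 bp bins around the start sites of C920006O11Rik, Ccdc107 and Parp2, with the small RNA gene shaded grey, and the mean of all 32817 start sites in the lowest panel. Red is S phase and blue G1 phase, and the y axes differ. The bin just before the start site is the highest beside Rn7sk and Rmrp, and not beside Rpph1.

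Over the whole regions, 4 of the 5 genes were above 1 and Rpph1 was below. A ratio above 1 was also found for 60.1% of all 48860 genes and 54.0% of the 6213 genes of up to 500 bp. The count of 4 is therefore given as a description only. Rn7sk (chromosome 9, 78175302 to 78175633) had 199 S-phase and 127 G1-phase reads, or 9.69 and 4.72 RPM, a ratio of 2.05 (1.63 to 2.58). Rny3 (chromosome 6, 47781624 to 47781724) had 116 and 81 reads, or 5.65 and 3.01 RPM, a ratio of 1.87 (1.40 to 2.52). Rmrp (chromosome 4, 43492785 to 43493059) had 162 and 166 reads, or 7.89 and 6.17 RPM, a ratio of 1.28 (1.02 to 1.60). For these 3 genes the interval lay above 1, but that of Rmrp held 1 when scaled to the median gene (1.19, 0.951 to 1.48) or to the 100 kb around the gene (1.114, 0.892 to 1.39).

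Rny1 (chromosome 6, 47788070 to 47788180) had 55 and 62 reads, or 2.68 and 2.31 RPM, a ratio of 1.16 (0.793 to 1.70) whose interval holds 1. Rpph1 (chromosome 14, 50807447 to 50807771) had 22 and 57 reads, or 1.07 and 2.12 RPM, a ratio of 0.505 (0.294 to 0.839). The size set for a call was a 2-fold difference, a ratio of 2 or more or of 0.5 or less, which Rn7sk reached and Rpph1 just missed. Scaled to the median gene, Rn7sk missed that size at 1.91 and Rpph1 passed it at 0.470. Rpph1 also passed it on the plus strand and without its highest position (0.473). Across all 48860 genes 5.21% were called higher and 3.48% lower (1932 and 2208 genes when scaled to the median gene, against 2545 and 1698), and an interval lay above 1 for 28.4% and below 1 for 13.4%. At a 1.5-fold difference Rn7sk and Rny3 were higher and Rpph1 lower, as were 15.6% and 9.57% of all genes. Among 6213 genes of up to 500 bp, the size class of these 5, the 2-fold shares were 12.9% and 8.84%, the 1.5-fold shares 26.3% and 19.7%, and the shares by interval 22.1% and 15.1%. Because the genes were chosen with these ratios known, nothing is read from the comparison. The ratio of Rn7sk was above that of 88.0% of these short genes and that of Rpph1 above 9.08%.

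The ratios of Rn7sk and Rny3 were lower without their clusters. The clusters were picked by their summed RPM, so this drop is a description only. Without its 50 bp window Rn7sk had 120 and 91 reads, a ratio of 1.73 (1.30 to 2.29). Rny3 without its window had 54 and 50 reads, a ratio of 1.41 (0.944 to 2.12), and its interval then held 1. Rmrp without its window stayed at 1.31 (0.921 to 1.86), from 68 and 68 reads. With each covered position of a strand counted once, the ratio of Rn7sk was 1.58 (1.01 to 2.52), from 55 and 33 positions, and those of the other 4 genes had intervals that held 1.

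**Figure D3:**
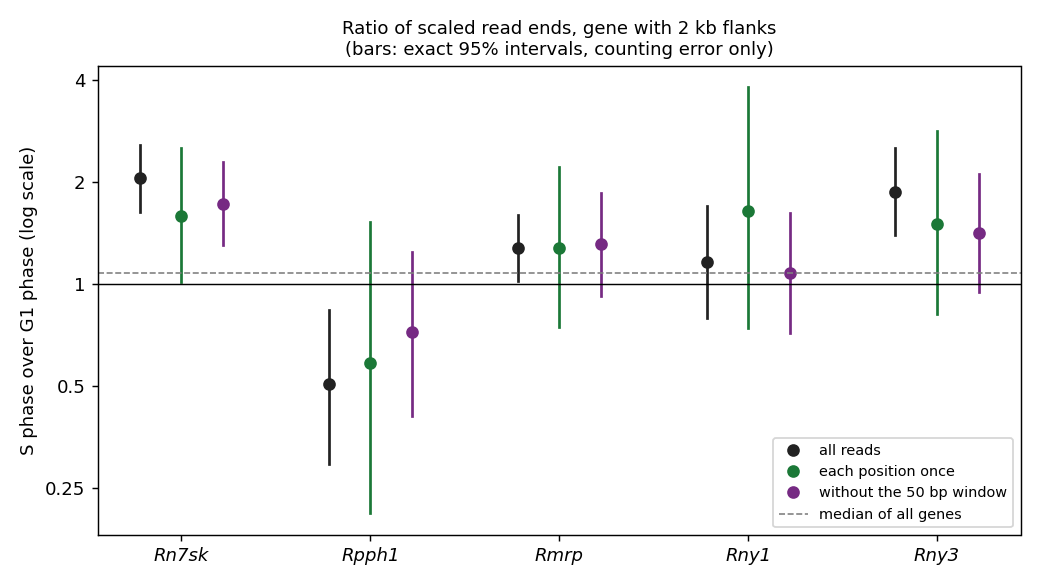
Ratio of scaled read ends, S phase over G1 phase, on a log axis, for each gene with 2 kb flanks, with all reads, with each covered position counted once and without the 50 bp window with the most ends. Bars are exact 95% intervals for counting error, and the dashed line is the median of all genes, 1.08. Rn7sk lies above 1 in all 3 versions, and the interval of Rpph1 excludes 1 with all reads and holds it in the other versions.

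The low ratio of Rpph1 rested on few positions. Its 22 S-phase reads lay at 8 strand-specific positions and its 57 G1-phase reads at 13, and the libraries shared 0 of them. The gene itself had 9 and 12 reads, a ratio of 0.982 (0.365 to 2.54), the left flank 5 and 15, and the right flank 8 and 30. The fullest window, at 50807740 to 50807789 across the right end of the gene, held 17 G1-phase reads at 3 positions just outside the gene and 0 S-phase reads. A count of 0 allows up to 3 reads (0.146 RPM). The window was picked by its summed RPM, here all from G1 phase, so its difference between the libraries is not a result. Without it the region's ratio was 0.720 (0.407 to 1.24). The difference was also on 1 strand, with 12 and 45 plus-strand reads (0.349, 0.168 to 0.671) against 10 and 12 minus-strand reads (1.09, 0.422 to 2.76).

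In both libraries the density of ends was higher within the gene than in either flank at Rn7sk, Rmrp, Rpph1 and Rny1, though at Rpph1 and Rny1 from 14 reads or fewer. Rn7sk had 34 and 22 reads within the gene, 4.99 and 2.46 RPM per kb, a ratio of 2.02 (1.15 to 3.63). Its left flank was at 0.876 and 0.576 RPM per kb, a ratio of 1.52 (0.914 to 2.54), and its right flank, which holds the cluster, at 3.14 and 1.38, a ratio of 2.28 (1.70 to 3.08). The 3 parts of Rn7sk were thus all above 1. Rmrp had 28 and 30 reads within the gene, 4.96 and 4.06 RPM per kb, a ratio of 1.22 (0.703 to 2.12). Its left flank was at 0.511 and 0.297 RPM per kb.

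The Y RNA genes themselves held few ends. Rny1 had 2 S-phase and 14 G1-phase reads, a ratio of 0.187 (0.0206 to 0.814). The G1-phase reads came from 2 positions, 5 plus-strand reads at one and 9 minus-strand reads at the other. Rny3 had 0 and 2 reads, too few for a ratio. The left flank of Rny3, with the cluster, had 93 and 71 reads, a ratio of 1.71 (1.25 to 2.37), and its right flank 23 and 8, a ratio of 3.76 (1.62 to 9.73). Y1 and Y3 lie close together on chromosome 6, but their regions share no reads.

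**Figure D4:**
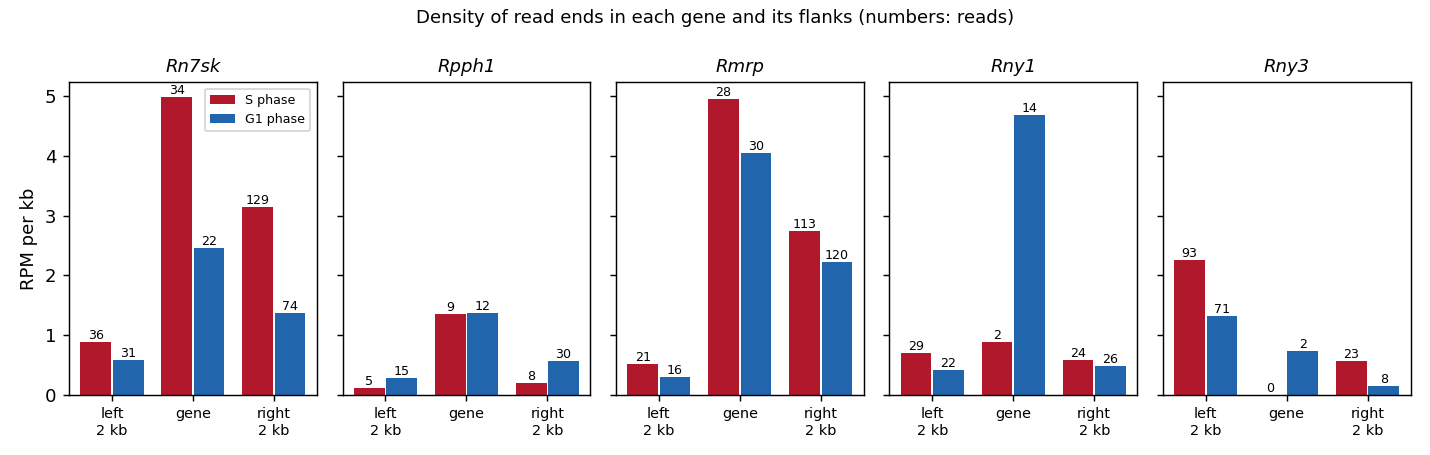
Density of read ends in RPM per kb within each gene and in the 2 kb to its left and right, with S phase in red and G1 phase in blue and the number of reads above each bar. Rn7sk is higher in S phase in all 3 parts, Rmrp is highest within the gene in both libraries, and the gene part of Rny1 is high in G1 phase from 14 reads.

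The plus-strand share of a whole region ran from 33.6% to 78.9% over the 5 genes and the libraries. Rn7sk was balanced, with 49.7% of reads on the plus strand in S phase (Clopper-Pearson interval 42.6 to 56.9) and 53.5% in G1 phase (44.5 to 62.4). Rmrp leaned to the plus strand with 74.1% (66.6 to 80.6) and 67.5% (59.8 to 74.5). Rny3 leaned to the minus strand with 33.6% (25.1 to 43.0) and 38.3% (27.7 to 49.7) on the plus strand. Rny1 had 72.7% (59.0 to 83.9) and 56.5% (43.3 to 69.0) of its reads on the plus strand, and Rpph1 54.5% (32.2 to 75.6) and 78.9% (66.1 to 88.6). In each gene the intervals of the libraries overlapped.

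Set against the 100 kb around each gene, Rn7sk and Rmrp stood out within each library, a measure that needs no scaling between them. The Rn7sk region held 45.9 reads per kb in S phase, 5.76 times its surroundings (4.91 to 6.75), and 29.3 in G1 phase, 2.88 times (2.37 to 3.46). The Rmrp region stood at 4.74 (3.97 to 5.62) and 4.25 (3.58 to 5.02) times its surroundings. Rpph1 stood at 0.673 (0.419 to 1.03) and 1.33 (0.999 to 1.74). The Y RNA genes lie in a part of chromosome 6 with more ends, 29.5 reads per kb around Rny1 in S phase and 35.4 in G1 phase. There Rny1 stood at 0.454 and 0.427 times its surroundings and Rny3 at 0.987 and 0.557. In RPM per kb, Rn7sk was above 99.2% of the short genes in S phase and 98.1% in G1 phase, Rmrp above 98.9% and 99.0%, and Rpph1 above 18.3% and 76.1%.

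The nearest genes gave the local setting of these ratios. C920006O11Rik, which starts 281 bp to the right of Rn7sk, had 70 and 42 reads, a ratio of 2.18 (1.47 to 3.28), in part the same reads. Cilk1, a kinase gene that ends 3188 bp to the left of Rn7sk, had 481 and 635 reads, a ratio of 0.992 (0.879 to 1.12). Beside Rpph1, Parp2 had 94 and 157 reads, a ratio of 0.784 (0.600 to 1.02), and Ccnb1ip1, 11719 bp to the left, had 35 and 85 reads, a ratio of 0.539 (0.353 to 0.808). Both neighbours of Rpph1 were thus below 1 as well, but the interval of Parp2 held 1. Parp2 reaches into the right flank of Rpph1, so part of its reads are the same. Beside Rmrp, Ccdc107 had 35 and 44 reads (1.04, 0.648 to 1.66), in part the same reads as the Rmrp region. Sit1, which encodes an adaptor protein of lymphocyte signalling, had 5 and 11. Beside the Y RNA genes, Pdia4, a disulfide isomerase gene of the endoplasmic reticulum, had a ratio of 1.13 (0.960 to 1.34), and the long noncoding RNA gene Gm52862 of 1.02 (0.753 to 1.39).

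Genes of the proteins that work with these RNAs were counted the same way. Of all 48860 genes 60.1% were above 1 (54.0% of the short genes) and 28.4% had an interval above 1. A ratio of at least 2 was reached by 5.21%, and one of at most 0.5 by 3.48%. These shares are the background for the counts that follow. They cover all RefSeq gene types, pseudogenes among them, and were not matched for ends before start sites. All 7 genes of 7SK particle proteins were above 1, 6 with an interval above 1, and their median log2 ratio was 0.51 against 0.10 over all genes. Cdk9, the kinase that 7SK holds, had 171 and 102 reads, a ratio of 2.19 (1.71 to 2.83), and Larp7, which binds the end of 7SK RNA, was lowest at 1.16 (0.980 to 1.37). The other member past the size of 2 was Mepce, the 7SK capping enzyme, at 2.15 (1.73 to 2.68), named after its value was seen. Hexim1 and Hexim2 lie so close together that their flanks share reads. Of 11 protein genes of RNase P and MRP, 8 were above 1 and 3 below, none past 2 or 0.5, with a median of 0.42. They ran from Pop5 at 1.77 (1.31 to 2.42) to Rpp21 at 0.899 (0.669 to 1.20). Of the Y RNA protein genes, Ssb, which encodes La, stood at 2.05 (1.61 to 2.63) and Ro60 at 1.05 (0.907 to 1.22).

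Factors of the promoters outside the gene were level, with 5 of 10 genes above 1 and a median log2 ratio of -0.01. They ran from Brf2, the initiation factor subunit used at such promoters, at 1.40 (1.17 to 1.68) to Snapc4, the largest subunit of the complex that binds the proximal sequence element, at 0.807 (0.645 to 1.01). Of 20 other genes of the RNA polymerase III machinery 19 were above 1, none past 2, with a median of 0.31. Polr3d was highest at 1.70 (1.22 to 2.37), and the catalytic subunit gene Polr3a lowest at 0.795 (0.682 to 0.925).

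Among other small RNA genes of RNA polymerase III, 9 of 13 listed symbols were matched and 6 were above 1. Rn7s1, a gene of the 7SL RNA of the signal recognition particle, had 104 and 58 reads, a ratio of 2.35 (1.69 to 3.29), and Rprl1, an RNase P RNA-like copy, 30 and 77 reads, a ratio of 0.510 (0.323 to 0.787). 7SL genes have near-identical copies, so reads of Rn7s1 can be split or shared among them. Whether this also holds for Rprl1 was not checked. In the contrast list of small RNA genes, most of them transcribed by RNA polymerase II, 12 of 14 symbols were matched and 8 were above 1, with a median log2 ratio of 0.34 against 0.50 in the preceding list. Rnu11, of the minor spliceosome, stood at 1.95 (1.30 to 2.94) and Rnu1b2, a U1 copy, at 0.499 (0.262 to 0.906). Past the size of 2 or 0.5 were Rn7s1 and Rnu1b2, 1 gene in each list. Among all short genes 12.9% were at 2 or more and 8.84% at 0.5 or less.

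The genes of up to 1000 bp with the most similar 4 levels, both libraries by both strands, were found by distance on log2(RPM + 1) over these 4 values. For Rn7sk they were C330013E15Rik (2.05) and Gm20277 (2.09), with ratios in brackets. For Rpph1 they were Gm24612 (0.519) and Olfr632 (0.551), for Rmrp Gm8034 (1.45) and Gm6686 (1.41), for Rny1 n-TEctc11 (1.104) and Gm5001 (1.14), and for Rny3 Rnu3b4 (1.56) and H4c8 (1.73). The ratios come from the same 4 levels, so their closeness follows from the choice and is not a result. With 2 libraries such likeness is a weak description.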

How the data were processed

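The authors deposited 1 bedGraph track per library and strand, holding raw counts of read ends at each base, per the file headers. The submitters' processing notes name mm10 as the build and list bedtools, SAMtools 1.11 and Bowtie 1.1.2. Settings, and the handling of duplicate or multiply matching reads, were not given in the sources used here. Sums used pandas 2.3.3 and numpy 2.4.6 in Python 3.11.15, with scipy 1.17.1 for intervals and matplotlib 3.10.9 for plots.

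Reads of each gene and its 2 kb flanks were summed by strand, also in 100 bp bins, and scaled to the reads on chromosomes 1 to 19. Ratios carry the conditional exact 95% interval of Poisson counts. Calls needed a 2-fold difference and at least 20 reads in a library. Coordinates of genes are RefSeq's, on GRCm38.p6. The ratio and call steps were tested on simulated data.

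The 5 genes and the partner lists were chosen with earlier results of these data known. The text names the 5 genes, the nearest protein-coding or long noncoding gene on each side, the highest and lowest gene of each partner list, and the 2 genes with the nearest levels. Alternatives covered scaling, flanks, strands and stacked reads.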

Additional observations from a re-analysis of the deposited data

How the results depend on the processing

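Rn7sk stayed above 1 in 12 of 12 alternatives (1.58 to 2.22), and was under the size for a call in 5 of them: each position counted once (1.58), without the 50 bp window (1.73), the plus strand (1.91), 5 kb flanks (1.91) and scaling to the median gene (1.91). Rny3 stayed above 1 in 11 of 11 (1.41 to 2.15). With no reads of Rny3 itself in S phase, the gene alone gave no value. Rpph1 was below 1 in 11 of 12, at 0.982 for the gene alone and 1.09 on the minus strand. It passed the size for a call at 0.470 scaled to the median gene, 0.473 without its highest position and 0.349 on the plus strand. Rmrp was above 1 in 11 of 12, at 1.02 on the minus strand and 0.994 with 5 kb flanks. Rny1 was above 1 in 9 of 12 (0.187 to 1.64), at 0.187 for the gene alone and 0.727 on the minus strand. Leaving out the 50 bp window was chosen after seeing the data. The causes of these shifts were not tested.

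The number of all genes at or above 2 was 2545, against 1388 with at least 50 reads, 815 with each position once and 801 among genes of up to 500 bp. At or below 0.5 it was 1698, against 319 with each position once and 549 among short genes. Scaled to the median gene the counts were 1932 and 2208, so lower calls then outnumbered higher ones. The regions held 22 to 199 reads, which limits precision. No paired analysis was possible because each group has 1 library.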
